A study of Caenorhabditis elegans with 2 samples.

Results

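The genes described are the 163 Caenorhabditis elegans snoRNA genes that do not lie wholly inside a protein-coding gene on the same strand, out of 346 annotated snoRNA genes. The rule uses the biotype and position of a gene in the Ensembl annotation and no binding value, but it was proposed with earlier results of these data known. The remaining 183 snoRNA genes are nested in a coding gene of the same strand. A member was called bound when the summit of a peak in the authors' main list lay within 100 bases of the gene. The main list is the longer of the thresholded lists that the authors made over both replicates, and holds 1046 peaks.

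Binding of the Y105C5A.15 protein was mapped by chromatin immunoprecipitation and sequencing with an antibody against GFP, in 2 biological replicates of 1 group. Both replicates were whole L4 larvae of strain OP773, 48 hours old, synchronised as starved L1 larvae after bleaching. All worms carried the integrated transgene wgIs773, with Y105C5A.15::TY1 EGFP 3xFLAG and unc-119(+), in the unc-119(tm4063) background. The sources used here do not say which sequences drive the transgene, and both replicates are of 1 integrated line. No sample here lacked the tagged protein, so antibody signal without it cannot be told apart from binding. In whole larvae, binding in fewer cells and weaker binding per cell cannot be told apart either. Read counts are not part of the lists, and the depth is therefore unknown. A gene absent from a list was not called at that depth, which does not show that the protein was absent from it.

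Small nucleolar RNAs guide the modification of other RNAs, mostly ribosomal RNA. Box C/D snoRNAs direct 2′-O-methylation with fibrillarin, and box H/ACA snoRNAs direct pseudouridylation with the dyskerin family enzyme. In vertebrates nearly all are cut out of introns of coding genes, while worms also have many with a promoter of their own. RNA polymerase III genes of the tRNA kind are started from internal elements, the A box and the B box, that are bound by TFIIIC. Genes of spliceosomal small nuclear RNAs are instead started from a proximal sequence element that is bound by the SNAPc complex.

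Sequences before the starts of 7 bound members are shown first, because they share a pair of elements that resemble the boxes of tRNA genes. Each run reads 5′ to 3′ on the strand of the gene, from 100 bases before the annotated start to 10 bases into it. Capitals mark the best A box-like match and, nearer the start, the best B box-like match, each 11 bases long.
T03F7.8: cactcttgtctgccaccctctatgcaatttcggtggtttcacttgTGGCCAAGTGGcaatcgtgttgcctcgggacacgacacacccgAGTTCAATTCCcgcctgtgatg
W03C9.9: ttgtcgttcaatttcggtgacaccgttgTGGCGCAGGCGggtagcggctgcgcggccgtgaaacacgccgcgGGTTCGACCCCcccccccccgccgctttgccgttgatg
F32E10.10: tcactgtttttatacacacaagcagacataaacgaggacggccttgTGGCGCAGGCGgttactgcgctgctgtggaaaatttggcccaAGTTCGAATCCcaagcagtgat
T06C12.16: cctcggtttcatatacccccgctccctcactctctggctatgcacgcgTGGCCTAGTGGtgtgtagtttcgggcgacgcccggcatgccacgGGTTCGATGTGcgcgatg
C41C4.11: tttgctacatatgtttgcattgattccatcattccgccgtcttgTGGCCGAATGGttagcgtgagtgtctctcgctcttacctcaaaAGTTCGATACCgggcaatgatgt
T10B9.11: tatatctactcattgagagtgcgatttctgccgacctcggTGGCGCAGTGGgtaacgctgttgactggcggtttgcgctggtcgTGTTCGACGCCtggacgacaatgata
F30H5.4: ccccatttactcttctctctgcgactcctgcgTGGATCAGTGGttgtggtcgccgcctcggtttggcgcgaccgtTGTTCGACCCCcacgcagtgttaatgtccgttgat
The windows on WBcel235, which is ce11, are T03F7.8 at chrV:11314158-11314267 (plus strand), W03C9.9 at chrII:11960798-11960907 (plus strand), F32E10.10 at chrIV:7574022-7574131 (plus strand), T06C12.16 at chrV:15873917-15874026 (minus strand), C41C4.11 at chrII:8107261-8107370 (minus strand), T10B9.11 at chrII:9774825-9774934 (minus strand) and F30H5.4 at chrIII:502704-502813 (plus strand). Bases are from the RefSeq assembly and gene positions from Ensembl.

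The matches were scored with a matrix for each box made from 200 distinct annotated tRNA sequences. The commonest bases of the matrices spell TGGCCCAGTGG for the A box and GGTTCGAACCC for the B box. A pair had its box starts 25 to 75 bases apart on the strand of the gene. A window was said to hold a pair when its best summed log2 score passed the value that 1% of such windows at other genes reach, windows with an annotated tRNA gene left aside. The matrices were made after the data were seen, and this limit was picked after others had been tried and their counts in bound and unbound members seen. At their own positions, 178 of the 200 tRNA sequences (89.0%) passed the same limit. No window of the 163 members held an annotated tRNA gene. A match is a description of letters and does not show a working promoter.

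Of the 163 members, 32 were bound (19.6%). The background of all annotated genes was 2.53%, and that of non-coding genes other than snoRNA genes 2.20%. The share was 12.6% at nested snoRNA genes, 41.7% at tRNA genes and 11.6% at snRNA genes. No test of the difference between these kinds of gene was run. Each of the 32 bound members had a peak of its own, none with more than 1 main peak and none sharing a peak with another snoRNA gene.

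The summits sat just upstream of the snoRNA. The median offset of the summit from the annotated start was -37.5 bases, with quartiles at -45.25 and -15. Of the 32 summits, 27 lay before the start, 3 in the gene and 2 past its end, and 23 lay 20 to 70 bases before the start. At the 23 bound nested snoRNA genes the median offset was -42 bases. At the 255 bound tRNA genes the median summit lay inside the gene instead, 24 bases after the start, with quartiles at 2 and 40 and a range of -98 to 155.

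A tRNA-like box pair stood before 26 of the 32 bound members (81.2%). It stood before 10 of the 131 members that were not bound (7.63%), before 30 of 183 nested snoRNA genes (16.4%) and, by the limit set, before 1.00% of other genes. These counts depend strongly on the limit, which was partly chosen because it set bound and unbound members apart. At the 25th percentile of the scores of the tRNA sequences, a pair stood before 34.4% of bound and 1.53% of unbound members, against 0.0129% of other genes. At the 10th percentile it was 84.4% and 12.2%, against 2.03%. At the 5th percentile it was 93.8% and 80.2%, against 56.3%, and with each box held to the 5th percentile of its own scores it was 96.9% and 83.2%, against 71.5%. At both of the loosest limits most windows of any kind held a pair. The pair is therefore a description of these members and no independent measure of binding.

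Read in the other direction, at the limit in use, 26 of the 36 members with a pair were bound (72.2%), against 6 of the 127 without one (4.72%). Among 459 other genes with a pair and no tRNA gene in the window, 17 (3.70%) had a main summit within 100 bases.

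The spacing of the pair was narrow. In the 26 bound members the A box-like match began a median of 58 bases before the start (range 50 to 72), and the B box-like match a median of 14 bases before it (range 6 to 28). The box starts were 43 bases apart in 11 members, 44 in 11 and 42 in 2, and 38 or 52 in the other two. In 20 of the 26 members the summit lay between the first base of the A box-like match and the last base of the B box-like match. It lay before the A box-like match in 1 member, ZK265.10, and past the B box-like match in 5. The median summit stood 22.5 bases before the B box-like match, and at bound tRNA genes it stood 28 bases before the expected B box.

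**Figure D1:**
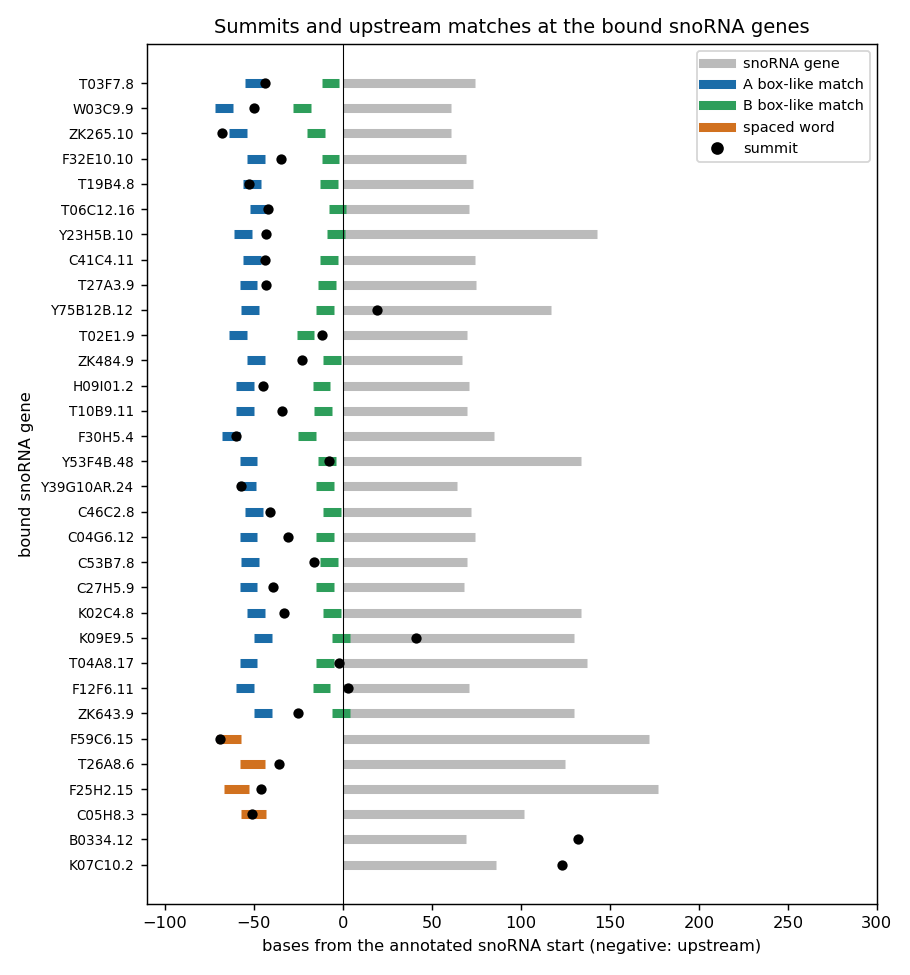
Map of the 32 bound snoRNA genes, aligned at the annotated start, in bases. Grey bars are the genes, blue and green bars the A and B box-like matches, orange bars the spaced word described in the text, and black points the main summits. In 26 genes the blue and green bars stand at nearly the same 2 places, and 20 of those summits lie from one to the other.

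T03F7.8 had the strongest peak of all members (V, 11314258 to 11314332, plus strand, in an intron of cutl-18 on the opposite strand). Its authors' signal was 236 in the pooled list, 117 in replicate 1 and 118 in replicate 2, with the summit 44 bases upstream. The replicate mean was 118 ± 1.08 (SD, n = 2). W03C9.9 (II, 11960898 to 11960959, intergenic) followed with 209 in the pooled list, 104.8 in replicate 1 and 100.3 in replicate 2 (mean of both 103 ± 3.17, SD, n = 2). The replicates differed little at both genes, and both pooled signals were far above the median of 63.5 over the main list. ZK265.10 (I, 8259437 to 8259498, intergenic) had a pooled signal of 178, with 95.2 in replicate 1 and 79.2 in replicate 2 (mean of both 87.2 ± 11.3, SD, n = 2).

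F32E10.10 (IV, 7574122 to 7574191) had a pooled signal of 151, with 76.1 in replicate 1 and 73.5 in replicate 2. T19B4.8 (I, 5707046 to 5707119) had 148, with 87.9 and 58.3 in replicates 1 and 2, a wider gap (mean of both 73.1 ± 20.9, SD, n = 2). T06C12.16 (V, 15873855 to 15873926) had 145, with 76.1 and 68.0. All 3 genes are intergenic, carry a box pair and had the summit 35 to 53 bases before the start.

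The next members with a pair, in order of pooled signal, were Y23H5B.10 (127), C41C4.11 (125), T27A3.9 (119), Y75B12B.12 (118), ZK484.9 (113), T02E1.9 (113), H09I01.2 (111), T10B9.11 (107) and F30H5.4 (104.6). Their replicate signals ran from 40.4 to 65.8 in replicate 1 and from 39.8 to 75.3 in replicate 2. The order among them is not firm, since the SD over replicates reached 18.2 at Y23H5B.10. Y75B12B.12 was the exception in position, with its pooled summit 19 bases into the gene. Its summits in replicates 1 and 2 lay 11 and 43 bases before the start.

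Weaker members with a pair were Y53F4B.48 (99.2), Y39G10AR.24 (92.6), C46C2.8 (92.1), C04G6.12 (83.8), C53B7.8 (79.3), C27H5.9 (75.2), K02C4.8 (67.1), K09E9.5 (63.1), T04A8.17 (61.2), F12F6.11 (59.5) and ZK643.9 (54.1). F12F6.11 had a ranked peak in replicate 1 (signal 39.6) and none in replicate 2 within 100 bases. ZK643.9 had 44.6 in replicate 1 and 12 in replicate 2 (mean of both 28.3 ± 23.1, SD, n = 2), the widest gap relative to the mean among the bound members.

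**Figure D2:**
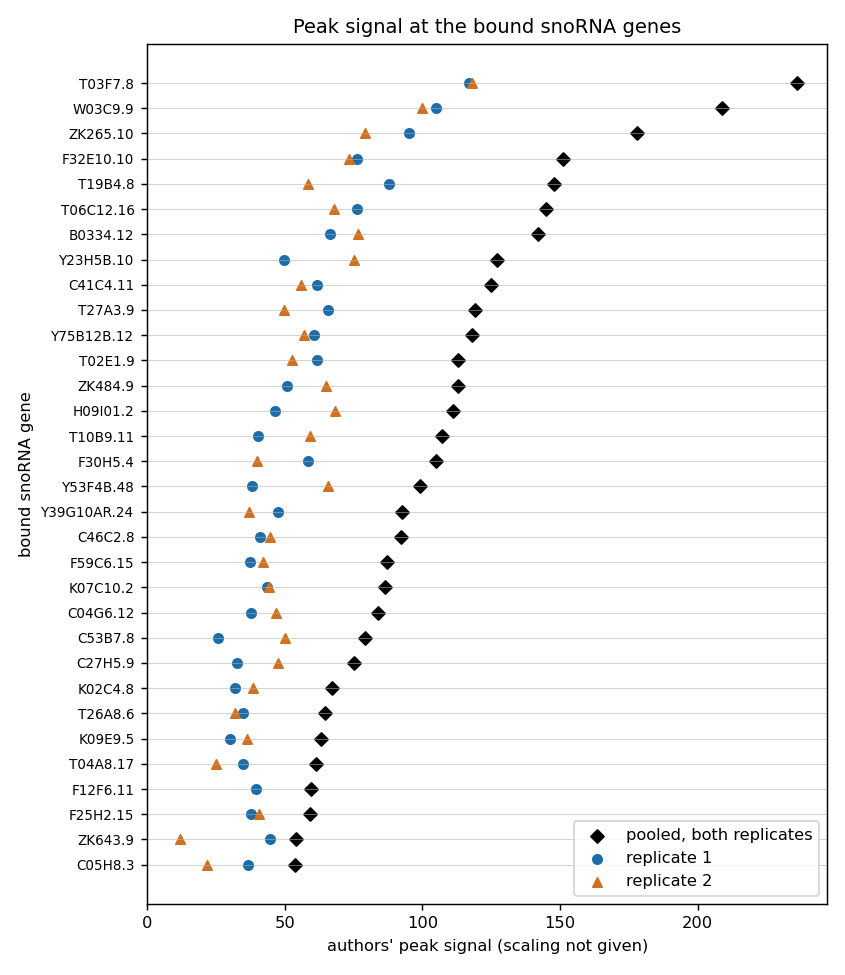
Authors' peak signal (horizontal axis, from 0, scaling not given) of the 32 bound snoRNA genes, with diamonds for the pooled list, circles for replicate 1 and triangles for replicate 2. Pooled signals run from 53.7 to 236, and F12F6.11 has no triangle because replicate 2 had no ranked peak there.

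The bound members were strong for this list. Their median signal was 102 (quartiles 73.2 and 125), and 26 of the 32 were above the main list's median. They took 5 of the 25 highest main peaks, 15 of the 100 highest and 22 of the 250 highest. The median was 76.4 at the 255 bound tRNA genes and 106 at the 23 bound nested snoRNA genes. These medians are over genes, and the nested genes C51F7.3 and C51F7.4 share a peak with a signal of 229, which counts at both. The small gap between members and nested genes is therefore not firm.

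The replicate lists alone held fewer members. The thresholded list of replicate 1 had a summit at 20 members, against a background of 0.990% of all genes, and that of replicate 2 at 21 members, against 0.945%. Of the 32 bound members, 16 were in both of these lists, 8 in 1 of them and 8 in neither. The conservative list held 30 of the 32, against a background of 2.14% of all genes. It lacked ZK643.9 and C05H8.3, which had the lowest pooled signals.

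All 32 bound members had a ranked peak within 100 bases in replicate 1, and 31 had one in replicate 2. Median signals were 45.5 and 50.2. Replicate 1 was higher at 15 of the 31 genes and replicate 2 at 16, so neither ran above the other. The SD over the replicates was a median of 13.5% of the mean. Across the 31 genes log2 signal gave Pearson's r = 0.61 and Spearman's rho = 0.70, as a description over genes chosen from a list that uses both replicates. The summits of the replicates lay within 20 bases of each other at 19 of the 31 genes, with a median gap of 15 bases.

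**Figure D3:**
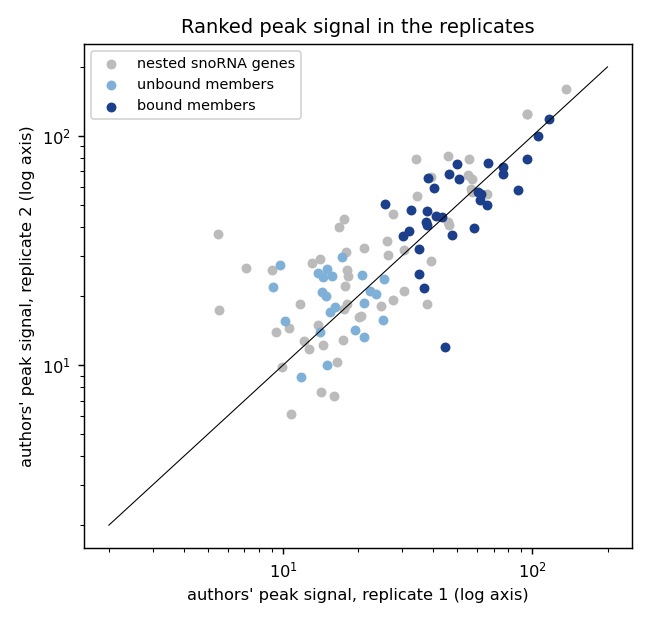
Authors' signal of the strongest ranked peak within 100 bases of each snoRNA gene, in replicate 1 (horizontal) and replicate 2 (vertical), both on log axes. Dark points are bound members, light blue points the other members, grey points nested snoRNA genes and the line equal signal. The dark points lie on both sides of the line, 15 with a higher signal in replicate 1 and 16 in replicate 2, and ZK643.9 stands farthest below it.

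Members with a pair that were not bound are the counterpart, and the sequences before 3 of them are shown for comparison, with capitals as above.
Y59E1B.14: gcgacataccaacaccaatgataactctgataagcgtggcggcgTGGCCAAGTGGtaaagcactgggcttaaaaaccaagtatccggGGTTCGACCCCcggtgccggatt
H04D03.5: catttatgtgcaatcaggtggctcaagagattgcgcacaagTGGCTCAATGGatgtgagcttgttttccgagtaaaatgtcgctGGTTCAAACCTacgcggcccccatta
W01C9.6: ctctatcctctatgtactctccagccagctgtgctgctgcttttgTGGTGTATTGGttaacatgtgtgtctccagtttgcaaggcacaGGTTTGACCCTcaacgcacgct
The windows are Y59E1B.14 at chrX:1891409-1891518 (plus strand), H04D03.5 at chrIII:10432243-10432352 (plus strand) and W01C9.6 at chrII:8547109-8547218 (plus strand).

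Y59E1B.14 had the highest pair score of all members (32.4) and no main summit. Its strongest pooled ranked peak had a signal of 37.3 with the summit 53 bases before the start, and the signal was 31.3 in replicate 1, with no ranked peak in replicate 2. H04D03.5 had 35.2 in the pooled list, 21.2 in replicate 1 and 13.2 in replicate 2, with the summit 30 bases before the start. In both genes the summit stood where it stands in the bound members, at an irreproducible discovery rate (IDR) above the authors' limit of 0.01. The IDR estimates how often a peak of a given rank fails to repeat.

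W01C9.6 was in the list of replicate 1 alone, with a signal of 69.8 and a summit 51 bases before the start. Replicate 2 and the pooled ranked list had no summit within 100 bases of it. C17D12.8 had 41.0 in the pooled ranked list, 9.75 in replicate 1 and 27.4 in replicate 2. K02C4.7 had 30.4, with 10.2 and 15.6, and Y74C9A.6 had 17.2, with 15.0 and 26.3. ZC395.12 had 17.8 in the pooled ranked list and 12.1 in replicate 2, with no ranked peak in replicate 1. None of these 4 was in a thresholded list. T27A8.9, Y41E3.464 and Y6B3B.15 had no ranked peak in any list used. Box starts were 42 to 44 bases apart in 5 of these 10 genes, against 24 of the 26 bound ones. The sequence of Y6B3B.15 lies at 5 near-identical places in the genome, its own included, where reads cannot be placed with certainty.

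A second kind of upstream word stood before other members. It is AAC and TGTC separated by 8 bases, and it was chosen after the data were seen. The runs below show it before 2 bound members, T26A8.6 and C05H8.3, and 2 that were not bound, with AAC and TGTC in capitals.
T26A8.6: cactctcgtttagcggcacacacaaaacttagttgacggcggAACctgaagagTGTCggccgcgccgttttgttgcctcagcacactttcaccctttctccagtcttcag
C05H8.3: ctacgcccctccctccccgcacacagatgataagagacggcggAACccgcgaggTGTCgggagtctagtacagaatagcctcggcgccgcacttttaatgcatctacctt
Y67A10A.14: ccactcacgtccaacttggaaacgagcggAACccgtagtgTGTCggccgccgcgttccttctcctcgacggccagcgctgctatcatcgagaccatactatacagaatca
Y55F3BR.9: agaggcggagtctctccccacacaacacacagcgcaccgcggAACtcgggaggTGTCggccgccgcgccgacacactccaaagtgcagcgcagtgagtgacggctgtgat
The windows are T26A8.6 at chrIV:8428730-8428839 (minus strand), C05H8.3 at chrIII:5653959-5654068 (minus strand), Y67A10A.14 at chrIV:14327112-14327221 (minus strand) and Y55F3BR.9 at chrIV:867124-867233 (minus strand).

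The spaced word stood before 4 of the 32 bound members and 23 of the 131 others (17.6%), against 0.653% of genes that are not snoRNA genes. It also stood before 44 of 129 snRNA genes (34.1%), which have their proximal sequence element in this stretch before the start. Of those 44 snRNA genes, 7 had a main summit within 100 bases (15.9%), near the share of 4 of 25 (16.0%) in members with the spaced word and no box pair. Only 2 members, K02C4.7 and Y74C9A.6, had both kinds of match, and neither was bound.

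The 4 bound members with the spaced word had modest signals. F59C6.15 had 87.0 in the pooled list, 37.3 in replicate 1 and 42 in replicate 2 (mean of both 39.6 ± 3.35, SD, n = 2). T26A8.6 had 64.5, with 35.0 and 32.0 (mean of both 33.5 ± 2.10, SD, n = 2). F25H2.15 had 59.2, with 37.6 and 40.8 (mean of both 39.2 ± 2.23, SD, n = 2), and C05H8.3 had 53.7, with 36.8 and 21.7 (mean of both 29.2 ± 10.7, SD, n = 2). Their summits lay 36 to 69 bases before the start, at or next to the word. In replicate 1 the strongest ranked summit at F25H2.15 lay 110 bases after the start, away from the word. Of these 4, only F25H2.15 was in a list of a single replicate, that of replicate 2. Their median pooled signal was 61.8, against 109 at the 26 bound members with a box pair.

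F59C6.15 and F25H2.15 belong to a family of copies, which shows how close bound and unbound members can be. Y67A10A.14 is 97.1% identical to F59C6.15 over the gene and was not bound, with 49.9 in the pooled ranked list, 25.3 in replicate 1 and 23.8 in replicate 2. F43A11.8 is 87.9% identical to F59C6.15, with 36.2 in the pooled ranked list, 21.1 in replicate 1 and 18.6 in replicate 2. All 4 carry the spaced word, and the replicates were lower at both unbound copies than at both bound ones. These values do not all come from the same place. At F43A11.8 the summits of replicates 1 and 2 lay 234 and 139 bases after the start, away from the word. In replicate 1 that of F25H2.15 lay 110 bases after its start. A nested copy, T19C4.11, is 88.2% identical to F59C6.15, carries the word and was not bound, with 35.7 in the pooled ranked list. F59C6.15 and F43A11.8 each have a near-identical second copy of the gene with its 100 upstream bases, so their signals are uncertain. The peak of F59C6.15 lies in those upstream bases, while the pooled summit at F43A11.8 lay 189 bases after its start, past the gene.

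In 2 other families both members were bound. C53B7.8 and C46C2.8 are 94.5% identical, carry a box pair and were both bound, with signals of 79.3 and 92.1. K09E9.5 and ZK643.9 are 94.7% identical and were both bound with a box pair, at 63.1 and 54.1. A further pair was split: T26A8.6 was bound, while T08B6.64, 85.7% identical to it, had no ranked peak in any list used.

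The 2 bound members with neither match had their summit past the gene. B0334.12 (II, 11484683 to 11484752, in an intron of twk-5 on the opposite strand) had a pooled signal of 142, with 66.4 in replicate 1 and 76.5 in replicate 2 (mean of both 71.4 ± 7.17, SD, n = 2), and the summit lay 132 bases after its start. A box pair with a score of 27.6 begins 1 base from this summit on the opposite strand, where no other non-coding gene is annotated within 100 bases of the summit. The run below is the opposite strand of the snoRNA gene, shown because the pair near the summit reads on it, with both matches in capitals. A peak has no strand, and whether this pair accounts for the peak was not tested.
B0334.12 opposite strand: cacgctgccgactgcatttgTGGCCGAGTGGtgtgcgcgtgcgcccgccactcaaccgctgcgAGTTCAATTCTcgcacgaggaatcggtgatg
The run lies at chrII:11484741-11484834 (minus strand).

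K07C10.2 (II, 11167217 to 11167303) had a pooled signal of 86.3, with 43.4 in replicate 1 and 44.2 in replicate 2 (mean of both 43.8 ± 0.520, SD, n = 2). Its summit lay 123 bases after the start, near the ncRNA genes K07C10.3 and K07C10.6 and the lincRNA gene K07C10.8, and no pair passed the limit on either strand. When the 201 bases on the summits of the bound members without a pair were searched on both strands, F25H2.15 also passed, with 11.3 on the opposite strand, just over the limit of 10.6. That limit was set for the shorter windows before the start on 1 strand. In this wider search it no longer stands for 1% of other genes, and no background share is given.

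**Figure D4:**
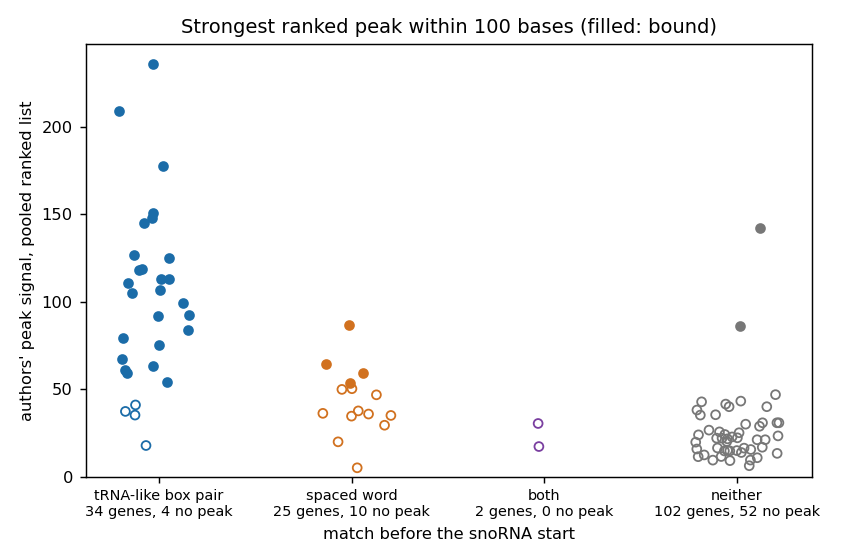
Authors' signal of the strongest pooled ranked peak within 100 bases of each of the 163 members (vertical axis, from 0), by the match before the start. Filled points are bound members and open points are not. Members with a box pair reach 236. Of the 34 with a box pair alone 26 are bound, neither of the 2 with both matches is, and 2 of the 102 with neither match are. Members with no pooled ranked peak have no point.

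Below the threshold, weaker peaks were common. A ranked pooled peak, strong or weak, lay within 100 bases of 97 of the 163 members (59.5%). The background was 22.3% of non-coding genes other than snoRNA genes, but nested snoRNA genes stood at 56.3%, close to the members. The excess over other non-coding genes was therefore not particular to the members, and these differences were not tested. In the 48 members with neither match that were not bound but had such a peak, the median signal was 21.8. In the 11 with the spaced word it was 35.8, but many of these peaks lay away from the word. The unbound members with the highest pooled ranked signals were Y55F3BR.9 (50.3), Y67A10A.14 (49.9), F55H12.9 (46.9), C16D9.10 (46.8) and K11D9.10 (43.2), and 3 of these 5 carry the spaced word. All 5 were under the lowest bound signal of 53.7. Among the 3 with the word, the pooled summit lay 61 bases before the start at Y67A10A.14. It lay 40 bases after the start at C16D9.10 and 120 bases after it at Y55F3BR.9, away from the word.

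Few members lay close to the distance limit. The bound summit farthest from its gene was that of F59C6.15, 69 bases away, and the nearest left out was at Y74C9A.6, 102 bases away. F47G4.9 and Y48A6C.10 followed at 120 and 169 bases, and all 3 carry the spaced word.

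Bound members were short. Their median length was 75 bases (range 62 to 178), against 151 bases in the unbound members and 128 in nested snoRNA genes. Of the 40 members of up to 90 bases 21 were bound (52.5%), and of the 123 longer ones 11 (8.94%). Within the short members, 19 of the 20 with a box pair and 2 of the 20 without one were bound. Within the long members it was 7 of 16 and 4 of 107. The split at 90 bases was chosen after the data were seen. Many of the unbound members, mostly long ones, carry gene identifiers from a single serial run of the annotation. That run holds no bound member, though it holds some bound nested snoRNA genes. It bears on each comparison of bound with unbound members and on the share bound, and its part in them was not tested.

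Words of the snoRNA classes were counted in the genes. CTGA, the box D, stood in the last 15 bases of 18 of the 32 bound members and of 20 of the 131 others. TGATGA, the core of box C, stood in 10 of the bound and 18 of the other genes. ACA in the last 8 bases, as box H/ACA snoRNAs have it, was found in 8 and 24 of them. A run of TTTT, the letters at which RNA polymerase III stops, lay within 50 bases after the end of 27 of the 32 bound members (84.4%), of 79 of the 131 others (60.3%) and of 60.9% of other genes. Among the 26 bound members with a box pair it was 25. Among unbound members it was 7 of the 8 with a box pair alone and 2 of the 2 with both kinds of match. In nested snoRNA genes the share was 73.8%. The run of TTTT was thus common after members with a pair, bound or not.

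Words of 6 bases were searched on both strands of the 100 bases before the start. Of these words, GAACCC and ACCACT were known from earlier results of these data, so their counts are no independent observation. GTTCGA, the core of the B box, stood before 10 of 32 bound members (31.2%), 2.29% of unbound ones and 2.93% of other genes. CGAACC, whose reverse complement overlaps GTTCGA, gave 21.9%, 1.53% and 1.08%. GAACCC, which overlaps CGAACC, gave 31.2%, 13.0% and 603 of 46544 other genes, and ACCACT, the reverse complement of an A box word, stood before 8 of the 32 bound members, 6.11% of unbound ones and 2.61% of other genes. TATAAA was found before 18.8%, 14.5% and 17.5%. In 100 bases on the summits, GTTCGA stood at 31.2% of bound members and 16.7% of the other 1014 main summits, and ACCACT at 21.9% and 15.8%.

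Members were bound in most of the places where they lie. Of the 124 intergenic members 23 were bound (18.5%), of the 27 in an intron of an opposite-strand coding gene 7 (25.9%), of the 6 that partly overlap a coding gene 2, and of the 6 over an opposite-strand exon none. By chromosome, 9 of 38 members were bound on I, 9 of 36 on II, 4 of 16 on III, 5 of 31 on IV, 3 of 19 on V and 2 of 23 on X. No tests were run on these counts.

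The members were not clustered. Only 4 of the 163 had another member's start within 2000 bases, in the pairs C27H5.9 with C27H5.10 and Y102A11A.16 with Y102A11A.17. C27H5.9 was bound with a signal of 75.2, while C27H5.10 had no summit within 100 bases in the pooled ranked list and 12.9 in replicate 1.

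Another non-coding gene within 100 bases, or the promoter window of a coding gene, was found at 18 of the 32 summits. Lying in an intron of an opposite-strand coding gene was not counted here. None of the 32 summits lay within 100 bases of a tRNA, snRNA or rRNA gene, while 11 lay that close to another non-coding gene, each an ncRNA or lincRNA gene. Of the summits, 9 were in the promoter window of a coding gene, from 1000 bases before to 200 after its start (28.1%), against 340 of the other 1014 main summits (33.5%). Which gene a summit belongs to cannot be told from position alone where several are near.

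Nested snoRNA genes held the same kinds of match. Of the 30 with a box pair 16 were bound (53.3%), and of the 153 without one 7 (4.58%). In their 16 bound genes the pair had a median gap of 44 bases and the summit stood a median of 38 bases before the B box-like match. The share bound among genes with a pair was thus 72.2% in the members and 53.3% in nested genes, and the difference was not tested.

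Genes for snoRNP proteins and for small RNA transcription were looked up as well. None of the 8 genes of snoRNP proteins had a main summit in the promoter window, among them fib-1, the methyltransferase fibrillarin, nol-56 and nol-58, the scaffold of box C/D particles, and nola-3 of the H/ACA particle. Of 15 matched genes for RNA polymerase III, its factors and SNAPc, 1 had one (6.67%). The background of all protein-coding genes was 1.94%, and lists this short cannot be told apart from it. It was snpc-1.2, a SNAPc subunit gene, with a signal of 58 and a summit offset of -463 bases.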

How the data were processed

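Peak lists of 2 replicates of chromatin immunoprecipitation were used as deposited. Per the labels' text records, the authors made them on ce11 from filtered alignments and 1 control. The sources used here name no peak caller, aligner or version. The signal is the authors' value per peak, of unstated scaling. The score in the deposited lists is a whole number derived from the IDR, and the ranked lists hold the authors' −log10 of the IDR. The thresholded lists name 1 further input, of unstated role. Per-peak signals are the authors' and describe peaks within a list.

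Genes came from Ensembl release 115. Each replicate value is the strongest ranked peak with its summit within 100 bases of the gene. Scripts used Python 3.11.15, NumPy 2.4.6, pandas 2.3.3, edlib 1.3.9.post1 (family identity over the whole gene, at least 80%) and blastn 2.17.0 (copies at 95% identity over 90% of the query). The steps were tested on simulated data. No significance test was run, since the design has 1 group.

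Members and lists were chosen with earlier results of these data known. All 32 bound members are named. The other names follow fixed rules: the 5 unbound members with the highest pooled signal, those nearest the distance limit, family copies and pathway genes with a summit. The unbound members with a box pair were named after their values were seen. The limit of the pair was changed after its counts were seen, and 7 limits were tried in all, each with its counts in the closing section. Alternatives changed the distance, the list, the replicate, the membership and the limit of the pair.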

Additional observations from a re-analysis of the deposited data

How the results depend on the processing

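Members bound stayed within 1.5 times of 32 under the other distances, peak overlap, the other pooled lists, the main peaks at or above the median signal, the membership rule and the peak-sharing rules (25 to 35). With 1 replicate left out the count was 20 to 21, of which 19 and 21 were among the 32. The median offset was -43 to -36.5 with 1 replicate left out, and -40 to -34 otherwise. The median signal of 102 became 99.2 within 50 bases, 92.6 within 200 bases, 95.9 by peak overlap, 106 in the conservative list and 112 in main peaks at or above the median signal. It was 59.3 to 61.8 in the list of a single replicate, whose signals need not share the pooled scale. Nested snoRNA genes bound numbered 23, against 13 within 50 bases and 14 to 18 with 1 replicate left out. A box pair stood before 81.2% of bound members, 7.63% of unbound members and 69.6% of bound nested genes. At a limit held by 2% of other genes, or at the 10th percentile of tRNA scores, the shares were 84.4%, 12.2% and 69.6%, and at a limit held by 0.5% they were those in use. At the 25th percentile they were 34.4%, 1.53% and 43.5%, and at the 5th 93.8%, 80.2% and 100%. With each box held to its own 5th percentile they were 96.9%, 83.2% and 91.3%. The size of the contrast between bound and unbound members thus depends strongly on the limit, and was smallest at both of the loosest limits. All of these limits were chosen after the data were seen.

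No paired analysis was possible because the study has 1 group. The unknown depth limits every statement on an unbound member, and near-identical copies limit 6 members, among them F59C6.15, F43A11.8 and Y6B3B.15. The causes of these changes were not tested.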
